A study of Mus musculus with 6 samples.

Results

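On this mouse lncRNA array, 649 of 60915 non-control probes carry a mouselincRNA name, and these are the probes described here. Membership follows from the probe name and uses no measured value, although this set of probes was picked for description with earlier results of these data known. The number in a name stands for a locus and the sign for a strand, so mouselincRNA0499+ and mouselincRNA0499- are the 2 strands of 1 locus. Together the probes cover 332 loci, 317 of them with a probe for each strand, 5 with the plus strand alone and 10 with the minus strand alone. Each probe has a single spot on each array, and the files pair these names with no gene, position or sequence.

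The study compared C2C12 cells, an established line of mouse muscle precursors, before and after differentiation. The 3 myoblast arrays measured cells kept in high-glucose DMEM with 10% fetal bovine serum, and the 3 myotube arrays measured cells moved to DMEM with 2% horse serum once they were 80 to 90% confluent. The 2 groups share the same unmodified line, with no transgene or drug named in the labels beyond the penicillin and streptomycin of the medium, and for the time spent in low serum no source used here gives a value. The series describes 3 independent experiments per group, so each array was taken as 1 replicate. The labelled cell states were not checked against markers, since none of the 22 muscle, proliferation, fibroblast and adipocyte genes listed for that purpose has a probe that the files name.

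Long intergenic noncoding RNAs, or lincRNAs, are transcripts that lie between coding genes and have no long open reading frame. Many were first catalogued from chromatin, as stretches with H3K4me3 at a promoter followed by H3K36me3 along the transcribed body. Such marks show that a locus is transcribed but are not themselves read from a strand, whereas an array can hold a probe for either strand. Skeletal muscle differentiation is known to involve several lincRNAs, among them linc-MD1, which acts as a sponge for microRNAs, and H19, but the deposited names do not say whether any of these 649 probes reads such a transcript.

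Most of these probes gave no signal well above background in either cell state. The scanner software's flag for signal well above background was absent on all 6 arrays for 438 of the 649 probes (67.5%), against 31.4% of all probes. It was present on at least 3 arrays for 136 (21.0%, against 58.3% of all probes), and only these were tested. On all 6 arrays it was present for 90 probes (13.9%, against 49.0%). In the other lincRNA-named series 20.0% of 1104 humanlincRNA probes, close to the share here, and 38.6% of 83 MM9LINCRNAEXON probes were tested, and in the main catalogue series 59.8%. These shares were not tested against each other. On the log2 scale used throughout, where 0 is the 75th percentile of an array, the 13 probes well above background on exactly 3 arrays had mean levels from −4.33 to −3.41, and the 8 on exactly 2 arrays had means from −4.45 to −3.54.

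How many of these probes passed the flag depended on the array. The myoblast arrays had 192, 143 and 109 in the order of their replicate numbers, and the myotube arrays had 113, 123 and 129. Myoblast replicate 1 stands apart: of 67 probes well above background on a single array, 52 were so on that array alone. Its local background was the lowest, with a median of 15.0 intensity units against 18.0 to 22.0 on the other arrays. Its 15 negative-control probes had a median level of −6.61, against −5.93 to −5.33 elsewhere. A probe flagged there and nowhere else was therefore not read as a myoblast transcript, and the part of background in these counts was not tested. Of the plus-strand probes 61 of 322 (18.9%) could be tested, and of the minus-strand probes 75 of 327 (22.9%).

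The main comparison asked which of these transcripts differ between myotubes and myoblasts. In myotubes 24 of the 136 tested probes rose and 31 fell (limma, Benjamini-Hochberg adjusted over all 35487 tested probes of the array). Together these are 55 probes or 40.4%, against 50.4% of all tested probes. The shares called higher were 17.6% and 23.4% of all probes, and those called lower 22.8% and 26.9%. Without myoblast replicate 3 the count was 34 in all (25%, against 38.2% of all tested probes), 15 higher and 19 lower, and without myoblast replicate 1 the number of falls was also 19. The split between rises and falls shifted to 16 higher and 32 lower with normexp, another background correction that was added to the alternatives once the values had been looked at.

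Most changes were small. At least a 2-fold change was found in 15 of the 136 probes, or 11.03%, against 17.6% of all tested probes. Of these 6 were higher (4.41%, against 9.05% of all tested probes) and 9 lower (6.62%, against 8.52%). That number of 15 was 24 without myotube replicate 1, and 6 with the added normexp. Normexp here adds 50 intensity units before the log2, which by arithmetic makes the changes of dim probes smaller. The median change over the tested probes was −0.09, close to the −0.07 over all tested probes, and their quartiles were −0.54 and 0.25. Among the rises 7 were under 0.5 on the log2 scale and 11 lay between 0.5 and 1, and among the falls the numbers were 6 and 16. The values of the groups did not overlap for 67 probes (49.3%), against 61.5% of all tested probes. Only 1 called probe had overlapping groups, mouselincRNA1065-. In bulk RNA, fewer cells that express a transcript and less of it per cell cannot be told apart.

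Where every array gave signal well above background, 42 of 90 probes passed (46.7%, against 50.2% of all such probes), and those with the largest changes are named here. mouselincRNA0763- had levels of −2.63, −2.63 and −2.32 on myoblast replicates 1 to 3 and −0.60, −1.01 and −0.91 on myotube replicates 1 to 3. It rose 3.22-fold (log2 change 1.69, SE 0.15, limma adjusted p = 0.000131). mouselincRNA0939+ stood at −1.37, −1.40 and −1.26 in myoblasts and at 0.32, 0.22 and 0.30 in myotubes, a 3.08-fold rise (log2 change 1.62, SE 0.09, limma adjusted p = 1.73e-05). Every myotube array lay far above every myoblast array for both probes, and for mouselincRNA0939+ the arrays of a state differed by 0.14 at most. mouselincRNA0047+ went from −2.10, −2.28 and −2.26 to −0.99, −1.08 and −0.29, 2.69-fold (limma adjusted p = 0.00158), with myotube replicate 3 the highest. mouselincRNA0561+ measured −2.66, −3.13 and −3.19 in myoblasts and −2.07, −1.52 and −1.72 in myotubes, 2.33-fold higher (limma adjusted p = 0.00213). The gap between its highest myoblast and lowest myotube array was 0.59, the narrowest of these 4.

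Smaller rises were in part tighter. mouselincRNA0478+ was at −0.72, −0.80 and −0.62 in myoblasts and at 0.22, 0.26 and 0.32 in myotubes, a change of 0.98 (SE 0.10, limma adjusted p = 0.000228). mouselincRNA0052- read 0.22, 0.09 and 0.14, then 0.75, 0.89 and 0.82, a change of 0.67 (limma adjusted p = 0.00132). mouselincRNA1235- rose by 0.70, from 1.33, 1.32 and 1.20 to 2.09, 1.81 and 2.04 (limma adjusted p = 0.0023). In these 3 probes all myotube arrays moved by a similar amount. mouselincRNA0627- rose by 0.77 and mouselincRNA0735+ by 0.71, with myotube replicate 1 at −1.66 and 0.73, the lowest of the 3 myotube arrays for each probe. mouselincRNA1377- rose by 0.56 (SE 0.14, limma adjusted p = 0.0145). Without myoblast replicate 2, mouselincRNA0735+ (limma adjusted p = 0.0558) and mouselincRNA1377- (0.0603) missed the threshold, and without myotube replicate 2 mouselincRNA0735+ did (0.0539). At lower signal, mouselincRNA0750+, well above background on 5 arrays and chosen after its values were seen, rose from −3.24 ± 0.07 to −2.14 ± 0.13 (SD, n = 3 each; limma adjusted p = 0.000222).

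Several of the largest falls were uneven across the myotube arrays, and those with the widest spread are given first. mouselincRNA0543- had levels of 2.54, 2.86 and 3.18 in myoblasts and 2.29, −0.10 and 0.36 in myotubes, which is −2.01 on the log2 scale (SE 0.58, limma adjusted p = 0.0250). mouselincRNA1040+ went from −0.80, −1.13 and −0.66 to −1.52, −3.69 and −3.22, a change of −1.95 (SE 0.52, limma adjusted p = 0.0185). In both, myotube replicate 1 lay close to the myoblasts and the other myotube arrays lay far below. The call of mouselincRNA0543- was lost without any one of myoblast replicates 2 and 3 and myotube replicates 2 and 3 (limma adjusted p from 0.0635 to 0.0947), and that of mouselincRNA1040+ without myoblast replicate 1 or 3 or myotube replicate 2 or 3 (0.0510 to 0.0749). mouselincRNA0413- was at 2.61, 2.57 and 2.65, then at 1.87, 0.62 and 0.74, and fell 2.89-fold (limma adjusted p = 0.00647). mouselincRNA0706+ was at 4.71, 4.60 and 4.64, then at 4.16, 3.09 and 3.45, and fell 2.12-fold (limma adjusted p = 0.0114). For mouselincRNA0706+ the myoblast arrays differed by 0.12 and the myotube arrays by 1.07.

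In the other falls named here, some of them larger than that of mouselincRNA0706+, the myotube arrays lay closer together. mouselincRNA1512- was at −1.43, −1.56 and −1.56 in myoblasts and at −2.99, −2.60 and −2.54 in myotubes, a fall by 1.20 (SE 0.14, limma adjusted p = 0.00053). Here myotube replicate 1 was the lowest array. mouselincRNA0188- changed by −1.43, from −1.62, −1.86 and −1.78 to −2.68, −3.66 and −3.20 (limma adjusted p = 0.00261). mouselincRNA1298- changed by −1.30, from −1.90, −1.99 and −1.38 to −2.64, −3.32 and −3.20 (limma adjusted p = 0.00353). mouselincRNA0133-, mouselincRNA1595- and mouselincRNA1377+ changed by −1.13, −1.06 and −0.90, with limma adjusted p-values of 0.00584, 0.00243 and 0.00351. Apart from mouselincRNA1512-, myotube replicate 1 was the myotube array nearest to the myoblasts for each probe of this group.

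Myotube replicate 1 was scanned together with the 3 myoblast arrays, whereas myotube replicates 2 and 3 each had a scan of their own. Over the 55 called probes, the distance of myotube replicate 1 from the myoblast mean was at the median 60.7% of that of the other 2 myotube arrays, against 84.1% over all called probes of the array. It was 51.8% among falls and 76.9% among rises, against 80.2% and 87.7% over all called falls and rises of the array. It lay nearer to the myoblast mean than to the mean of the other 2 in 18 of the 55 probes (32.7%), against 18.9% of all called probes. Without it 70 of the 136 probes passed (51.5%, against 64.6% of all tested probes), 54 of them among the 55. Scan and culture cannot be told apart for this array.

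With scan as a block, which compares myotube replicate 1 with the myoblasts of its own scan, 41 of the 136 probes passed (30.1%, against 47.6% of all tested probes), and 31 of these were among the 55. Of the probes named above, mouselincRNA0543- (−0.57, limma adjusted p = 0.161), mouselincRNA1040+ (−0.66, 0.0668), mouselincRNA1298- (−0.88, 0.0665), mouselincRNA0735+ (0.31, 0.0570) and mouselincRNA1377- (0.31, 0.0901) no longer passed within that scan. mouselincRNA0413- (−0.74), mouselincRNA0706+ (−0.49), mouselincRNA0133- (−0.60), mouselincRNA0627- (0.42), mouselincRNA0188- (−0.93), mouselincRNA1595- (−0.68) and mouselincRNA1377+ (−0.55) passed with a change smaller by over 1.5 times. The rises of mouselincRNA0763- (1.92), mouselincRNA0939+ (1.67), mouselincRNA0047+ (1.22), mouselincRNA0478+ (0.94) and mouselincRNA0750+ (1.22) and the fall of mouselincRNA1512- (−1.48) were about as large or larger there. Without the filter on dim probes, both the fit and the adjustment of p-values took in more probes. In that setting mouselincRNA0543- (limma adjusted p = 0.0665), mouselincRNA1040+ (0.0524), mouselincRNA0735+ (0.0503) and mouselincRNA1377- (0.0519) were not called. Nor were mouselincRNA0499+ (0.0791), mouselincRNA0538+ (0.0973), mouselincRNA0538- (0.0718) and mouselincRNA1512+ (0.0953). With normexp, whose offset makes the changes of dim probes smaller, those of several probes were smaller by over 1.5 times. They were 1.02 for mouselincRNA0763-, 0.62 for mouselincRNA0561+, 0.52 for mouselincRNA0750+, 0.50 for mouselincRNA0627-, 0.34 for mouselincRNA1377-, −1.22 for mouselincRNA1040+, −0.73 for mouselincRNA0188-, −0.72 for mouselincRNA1298- and −0.78 for mouselincRNA1512-.

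In 2 probes the signal was well above background throughout one state and on no array of the other: 1 was seen in myotubes (0.15%, against 0.60% of all probes) and 1 in myoblasts (0.15%, against 0.88%). For mouselincRNA0499- the myoblast levels were −6.92, −6.21 and −5.57, close to the medians of the negative-control probes on these arrays (−6.61, −5.85 and −5.33), and the myotube levels were −2.42, −2.26 and −2.58. Its signal was thus at background on all 3 myoblast arrays and clear on all 3 myotube arrays, myotube replicate 1 included. Since the myoblast values lie at background, the mean of the myotube arrays was set against the lowest level flagged as well above background on each myoblast array. By this measure it was 3.14-fold higher in myotubes, or by 1.65 on the log2 scale. That level is no strict ceiling: on myoblast replicate 1 it was −4.86, and probes flagged on no array reached −4.58 there. The fit, on the measured myoblast values rather than on this measure, gave limma adjusted p = 9.26e-05. The probe was tested only because its myotube arrays passed the filter, so the separation of the groups follows in part from that choice. With normexp, whose offset of 50 puts it on another scale, its change was 0.92 (limma adjusted p = 0.000187). The reverse pattern was seen in mouselincRNA1424+, at −3.32, −3.67 and −2.00 in myoblasts and −3.79, −3.95 and −3.73 in myotubes. It was 1.57-fold lower in myotubes by the same measure, though its −3.73 on myotube replicate 3 lay above the −3.75 used for that array. It did not pass (limma adjusted p = 0.125), with myoblast replicate 3 far above the other 2. Without myoblast replicate 3 its change was −0.33 (limma adjusted p = 0.157), so the measure rests on that array. Without myoblast replicate 2 the change was −1.16 (limma adjusted p = 0.0499).

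The probes for either strand show how often signal came from a single strand. Of the 317 loci with a probe for each strand, 44 had only the plus strand tested, 58 only the minus strand, 17 both and 198 neither. In 55 loci one strand was well above background on all 6 arrays and the other on none, 25 on the plus and 30 on the minus strand. None of the 15 loci with a single probe was tested. A strand with no signal says only that its probe was not well above background, as a probe can also bind poorly, which was not tested.

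In the 17 loci with both strands tested, the changes of the strands were compared. A single strand was called in 10 loci, both in 4 and neither in 3. Of all tested probes 50.4% were called, and the split was not tested against what that share alone would give. The difference between the changes of the strands, formed within each array so that the brightness of the 2 probes cancels, passed in 9 of the 17 loci (limma, adjusted over the 43 lincRNA-named loci with both strands tested, of which 18 or 41.9% passed). In 7 of these 9 loci a single strand was called. That number of 9 was 4 without myoblast replicate 2, and 2 when strands not well above background were also admitted. It was 10 with normexp, and 10 of the 11 loci with both strands well above background on all 6 arrays. With scan as a block myotube replicate 1 stands alone, so no count is given.

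At 2 loci the strands were called in opposite directions. mouselincRNA0499- was the probe seen in myotubes alone, while mouselincRNA0499+ was at −0.45, −0.61 and −0.51 in myoblasts and fell to −0.91, −1.02 and −0.79 in myotubes (log2 change −0.39, SE 0.11, limma adjusted p = 0.0212). The groups do not overlap on either strand. The fit gave a difference between the strands of −4.20 (limma adjusted p = 0.00122), but it uses the background-level myoblast values of the minus strand, which was tested only through its myotube arrays, so its size is not a measured change. The fall of mouselincRNA0499+ was narrow and missed the threshold without myoblast replicate 1 (0.0865) or 3 (0.0794) or myotube replicate 2 (0.0584). At mouselincRNA1377 the plus strand fell from 1.61, 1.63 and 1.66 to 1.08, 0.49 and 0.64, and the minus strand rose from −1.93, −2.14 and −2.00 to −1.72, −1.40 and −1.27. Its plus strand changed by 1.46 less than its minus strand on the log2 scale (SE 0.29, limma adjusted p = 0.015), and without myoblast replicate 2 that difference missed the threshold (0.0525). Within scan 1 the difference was smaller, at −0.86.

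At the other 2 of these 4 loci both strands were called in the same direction. mouselincRNA1512+ went from −1.88, −2.22 and −2.02 to −2.33, −2.74 and −2.47 (log2 change −0.48, limma adjusted p = 0.0323), beside the fall of mouselincRNA1512-. That call was lost without myoblast replicate 1 or 3 or myotube replicate 2 or 3 (0.0709 to 0.112). The difference of 0.72 between them (SE 0.25) did not pass (limma adjusted p = 0.0573). Within scan 1 it was 1.19, and the change of mouselincRNA1512+ itself was smaller there, at −0.29. mouselincRNA0538+ rose from 1.70, 1.72 and 1.75 to 1.97, 2.19 and 2.03, and mouselincRNA0538- from −4.06, −3.84 and −4.02 to −3.68, −3.55 and −3.42. The difference between their changes of 0.34 and 0.42 did not pass (−0.08, SE 0.17, limma adjusted p = 0.714). mouselincRNA0538- was not called with normexp (0.11, limma adjusted p = 0.341) or with trended, robust variance (0.104). Within scan 1 mouselincRNA0538+ changed by 0.24 and mouselincRNA0538- by 0.30. The plus strand missed the threshold without any one of the 3 myoblast arrays or myotube replicate 2 (limma adjusted p from 0.0655 to 0.0942). The minus strand missed it without myoblast replicate 1 or 3 or myotube replicate 3 (0.0571 to 0.0796).

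At the other loci with a called difference, one strand changed and its partner was not called. mouselincRNA0939- was at −1.97, −2.20 and −2.03 in myoblasts and −1.73, −1.93 and −1.96 in myotubes, a change of 0.19 beside the 1.62 of its plus strand (difference 1.43, SE 0.16, limma adjusted p = 0.00218). mouselincRNA0561- changed by 0.03 beside the 1.22 of its plus strand (difference 1.19, SE 0.21, limma adjusted p = 0.0136). mouselincRNA0413+ changed by 0.11 beside the −1.53 of its minus strand (difference 1.64, SE 0.29, limma adjusted p = 0.0136). In all 3 the within-array gap between strands did not overlap between myoblasts and myotubes. Within scan 1 the difference was 1.33 at mouselincRNA0939, 0.98 at mouselincRNA0561 and 1.05 at mouselincRNA0413. Over 16 alternatives, the call was kept in 16 at mouselincRNA0939, but only in 12 at mouselincRNA0561 and 13 at mouselincRNA0413.

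The remaining 4 differences were less stable. mouselincRNA0706- read −0.98, −0.87 and −0.84, then −0.76, −0.98 and −0.87, beside the fall of its plus strand (difference −1.11, SE 0.26, limma adjusted p = 0.0210). mouselincRNA1040- read −0.763, −0.989 and −1.003, then −0.83, −1.33 and −0.90, beside the uneven fall of mouselincRNA1040+ (difference −1.84, SE 0.48, limma adjusted p = 0.0274). mouselincRNA0544- fell evenly, from 1.23, 1.20 and 1.25 to 0.67, 0.55 and 0.51 (limma adjusted p = 0.00135), beside −0.01 on its plus strand (difference 0.64, SE 0.16, limma adjusted p = 0.0261). At mouselincRNA1235 the plus strand was at −1.94, −1.91 and −0.69 in myoblasts and −2.08, −2.33 and −2.32 in myotubes, so its change of −0.73 (limma adjusted p = 0.106) rested on myoblast replicate 3, and without that array it was −0.32. Its difference from the minus strand was −1.43 (SE 0.40, limma adjusted p = 0.0280), and −0.97 without that array. In scan 1 myotube replicate 1 stands alone, so these 4 differences were not judged there. The differences at mouselincRNA0544 and mouselincRNA0706 missed the threshold without myoblast replicate 1, 2 or 3 or myotube replicate 3, and that at mouselincRNA0706 also without myotube replicate 2. At mouselincRNA1040 each array other than myotube replicate 1 was needed, and at mouselincRNA1235 myoblast replicate 2 and each myotube array.

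Of the 136 tested probes 81 did not pass, and 13 of these (16.0%, against 22.9% of all tested probes that did not pass) had groups that did not overlap. Their changes ran from −1.14 to 0.72. The SD was larger among myotube arrays than among myoblast arrays for 90 of the 136 probes (66.2%, against 79.4% of all tested probes). Its median was 0.14 in myoblasts and 0.27 in myotubes, against 0.08 and 0.20 over all tested probes. Both probes that follow were chosen after their values were seen. mouselincRNA1606- was bright on every array, at 6.68, 7.44 and 6.74 in myoblasts and 7.35, 5.11 and 4.97 in myotubes (log2 change −1.14, SE 0.62, limma adjusted p = 0.165). Its 4 values from scan 1 lie together and the 2 from the other scans lie below them. Without myotube replicate 1 the change was −1.92 (limma adjusted p = 0.000994), and within scan 1 it was 0.40. mouselincRNA0522- was at −1.34, −0.82 and −0.89 in myoblasts and at 0.31, −2.34 and −1.15 in myotubes, where replicate 1 lies above and replicate 2 below all myoblast arrays. Its change of −0.05 (limma adjusted p = 0.956) averages these. Within scan 1, where myotube replicate 1 stands alone, the change was 1.32.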

How the data were processed

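Per the labels, ribosomal RNA was removed and the remaining RNA was amplified with random primers and labelled with Cy3. Per the file headers, the authors read the arrays, designed on mm9, with Agilent Feature Extraction 11.0.1.1, which gave the deposited background-subtracted intensity and flags. The deposited series table holds log2 values, quantile normalized as inferred from equal column distributions, and was used only as an alternative. Here log2 processed intensity was taken, outlier spots (1 mouselincRNA spot, not tested) and 15 negative-control probes left out, and each array's 75th percentile subtracted. The fit (limma 3.58.1, R 4.3.3, lmFit then eBayes, threshold 0.05), checked on simulated data, took the probes with signal well above background on 3 or more of the 6 arrays. Tables used Python 3.11.15. No spot was saturated. The number of arrays limits the precision. The files hold no gMeanSignal column, so normexp (offset 50) used the median signal, chosen after the data were seen. Probes were named by a rule: the 10 largest rises and falls among called probes well above background on all 6 arrays, probes seen in one state alone, and loci with both strands called or a strand difference called. The probes and the rule were chosen with earlier results of these data known.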

Additional observations from a re-analysis of the deposited data

How the results depend on the processing

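The count of 55 called mouselincRNA probes ran from 34 to 70 when 1 array was left out (15 to 28 higher, 19 to 42 lower). The share of all tested probes that were called ran from 38.2% to 64.6% in these settings. The count of 55 ran from 48 to 55 under alternatives that tested the same 136 probes on all arrays without a scan block. Where all 6 arrays had to be well above background it was 43 of 90 (47.8%, against 52.2% of all such probes). Without the filter on dim probes it was 44 of 649 (6.78%, against 23.7% of all probes), and 29 of these were among the 55. The count at 2-fold ran from 11 to 24 without 1 array, and was 6 with normexp, an alternative added once the values had been looked at. The offset of normexp makes the changes of dim probes smaller. The count of 9 strand differences was 2 without the filter on dim probes, 10 with normexp, and 4 to 9 without 1 array. Among the 11 loci with both strands well above background on all 6 arrays it was 10. Of 27 named probes with a call, 18 kept it in every alternative that held them, and so did 2 of 9 strand differences. These were at mouselincRNA0939 and mouselincRNA0499. The minus strand of mouselincRNA0499 was tested only through its myotube arrays, so its difference was absent where all 6 arrays had to be well above background. Equal replicate numbers did not pair the arrays (correlations of deviations −0.149, −0.003 and −0.094, and no array correlated best with its own number). With the replicate block 51 probes (37.5%, against 46.6% of all tested probes) and 3 strand differences passed.

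Changes of sign were seen in uncalled items alone. mouselincRNA0544+ (−0.01) was at 0.0061 with quantile normalization, 0.0071 with the series table, 0.14 with scan as a block or within scan 1, and from −0.085 to 0.078 without 1 array. mouselincRNA0561- (0.03) was at −0.056 with scan as a block or within scan 1 and from −0.087 to 0.10 without 1 array. mouselincRNA0706- ran from −0.027 to 0.081, and mouselincRNA1040- from −0.20 to 0.052, without 1 array, and the latter was at 0.087 with scan as a block or within scan 1. mouselincRNA1606- was at 0.40 and mouselincRNA0522- at 1.32 with scan as a block or within scan 1, and the latter ran from −0.73 to 0.59 without 1 array. The strand difference at mouselincRNA0538 was 0.24 with normexp. The cause was not tested. Signal over background limits the 513 untested probes, for which no change could be measured.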
